A study of Mus musculus with 22 samples.

Results

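Collagen genes were examined in bulk RNA sequencing of the mouse renal capsule, a fibrous layer that encloses the kidney, and of macrophages. The members were all protein-coding genes of GRCm38 (GENCODE M21) with a symbol made of Col, a number, the letter a and a number. The rule found 44 members among the 52636 genes of the files, and it used no measured value. By chain type, 11 were fibrillar, 8 were of the basement membrane, 6 were of the beaded filament (type VI), 9 were FACITs (fibril-associated collagens with interrupted triple helices), 4 were network or anchoring collagens, 4 were transmembrane and 2 were left unclassed. The sample titles placed 22 libraries in 6 groups, all untreated. Whole renal capsule was sequenced in 3 libraries of young and 3 of aged mice. Renal capsule macrophages and kidney macrophages made up 4 libraries each, with no age stated. Libraries titled RCAMs, young and aged, gave 4 each. RCAM is not spelled out, and the labels list whole tissue as the cell type of these libraries, while the design text speaks of capsules sorted by FACS for macrophages. No strain, sex, age in numbers, sorting marker or batch is given. Nothing states that replicates are separate animals. The p-values therefore measure the spread among these libraries alone, and that spread may be technical.

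Collagens are secreted proteins in which 3 chains wind into a triple helix. Fibrillar collagens (types I, III and V in most soft tissues) form the tension-bearing fibres of a capsule, and are made mainly by fibroblasts. Type IV chains form the sheet-like network of basement membranes, in fixed trimers of Col4a1 with Col4a2, of Col4a3, Col4a4 and Col4a5, or of Col4a5 with Col4a6. Types XV and XVIII sit at the basement membrane and carry heparan or chondroitin sulphate chains, and their C-terminal pieces are restin and endostatin. Type VI chains form beaded microfilaments near cells, and FACITs such as type XII and type XIV coat the surface of fibrils.

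The genes of type IV collagen stand in head-to-head pairs, so the stretch between the start sites of a pair is shared by both chains. Col4a1 and Col4a2 overlap by 22 bases at their starts on chromosome 8. Col4a3 and Col4a4 start 71 bases apart on chromosome 1, and Col4a5 and Col4a6 start 1308 bases apart on chromosome X. The stretch between Col4a3 and Col4a4 is shown because these genes are described side by side below. It is the plus strand of chr1:82586850-82586920 in GRCm38.p6. The 250 bases before the annotated start of Col3a1, the collagen of highest level in 5 of the 6 groups, are shown beside it (plus strand, chr1:45311288-45311537, RefSeq promoter table, GRCm38.p6). Capitals mark the letters TATAAA.
Col4a3-Col4a4: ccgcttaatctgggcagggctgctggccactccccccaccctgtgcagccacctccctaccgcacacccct
Col3a1: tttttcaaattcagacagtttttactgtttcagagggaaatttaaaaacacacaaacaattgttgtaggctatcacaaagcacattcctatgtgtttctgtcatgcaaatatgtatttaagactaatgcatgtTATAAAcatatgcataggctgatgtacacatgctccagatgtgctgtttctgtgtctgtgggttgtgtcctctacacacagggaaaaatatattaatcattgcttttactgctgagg
Guanine and cytosine made up 69.0% of the stretch between Col4a3 and Col4a4 and 35.2% of the bases before Col3a1. RefSeq promoters were found for 35 of the 44 members, in 38 windows of 250 bases. A search on both strands found GGGCGG or CCGCCC in 22 of the 38 windows (57.9%), against 32.7% of all 32851 promoter windows of that length. CCAAT or ATTGG was in 13 windows (34.2%, against 33.8% of all), and TATAAA or TTTATA was in 5 (13.2%, against 12.4% of all). The stretch between Col4a3 and Col4a4 held none of these letters.

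Levels are given in CPM, the counts of a gene per 1000000 counts of its library over all genes. Libraries held 20586795 to 54421764 counts, with the fewest in young capsule tissue. A list of 10 macrophage genes summed to 38162 to 43108 CPM in the RCAM libraries and 35276 to 39349 CPM in capsule macrophages. It summed to 24574 to 26707 CPM in kidney macrophages and 2159 to 10682 CPM in capsule tissue. For 9 adipocyte genes the sum was 18799 to 41642 CPM in capsule tissue against 782 to 1586 CPM for RCAM. The same genes reached 722 to 782 CPM in capsule macrophages. Both capsule tissue libraries numbered 2 held adrenal cortex transcripts, with list sums of 197 CPM (young) and 6505 CPM (aged) against 11.5 to 24.2 CPM in the other tissue libraries.

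All members together summed to 6858 to 10074 CPM in young capsule tissue and 6577 to 9342 CPM in aged capsule tissue. They summed to 507 to 801 CPM in capsule macrophages, 236 to 336 CPM in kidney macrophages, 549 to 702 CPM in young RCAM libraries and 652 to 2348 CPM in aged RCAM libraries. Kidney macrophages were the lowest group and did not overlap any other. In a bulk library, fewer cells of a type and less RNA per cell cannot be told apart.

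**Figure D1:**
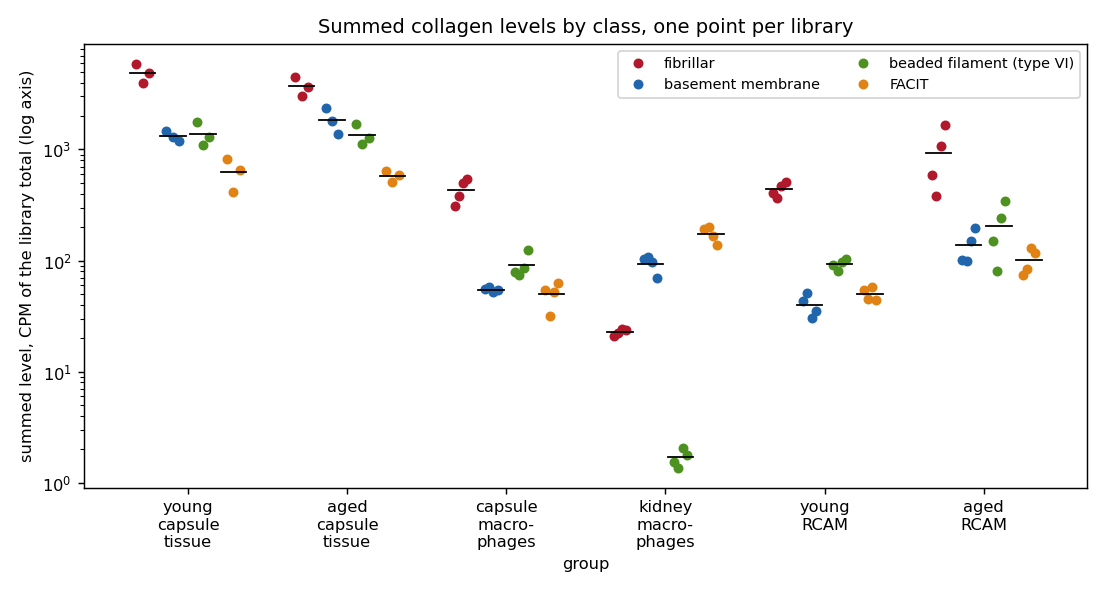
Summed level of each of 4 collagen classes in CPM (log axis) for each library, by group; points are libraries and black lines are group means. Fibrillar collagens lead in every group except kidney macrophages, where they sum to 20.9 to 24.2 CPM and FACITs to 137 to 202 CPM.

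In young capsule tissue the fibrillar class took 57.6 to 59.6% of all collagen counts. Col3a1 (type III, chromosome 1, 45311538 to 45349706) lay at 2391, 1735 and 1873 CPM in the 3 young libraries. Its exons overlap those of Gm47302 on the same strand, so its counts carry that uncertainty. Col1a2, the α2 chain of type I (chromosome 6, 4504814 to 4541544), lay at 1870, 1133 and 1635 CPM. Col1a1, its α1 chain (chromosome 11, 94936224 to 94953042), lay at 1124, 701 and 1001 CPM. Young replicate 2 was the lowest of the 3 for each of these genes. Levels of different genes were compared per kb of merged exon length. On that scale Col3a1 led with 204 ± 35.2 CPM per kb (SD, n = 3), before Col1a1 (144 ± 33.1), Col1a2 (124 ± 30.3) and Col6a1 (111 ± 24.2). The intervals of 1 SD of Col3a1 and Col1a1 overlapped, as did those of Col1a1, Col1a2 and Col6a1. Within each of the 3 libraries Col3a1 stood above Col1a1, and Col1a1 above Col1a2. With the length of the principal transcript in place of merged exons, Col1a2 (289 CPM per kb) stood above Col1a1 (159).

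Per kb, the remaining classes of young capsule tissue were led by type VI, type IV, type XIV and type XV. Col6a1, Col6a2 and Col6a3, the 3 chains of the common type VI molecule, had means of 488 ± 106, 446 ± 100 and 217 ± 35.5 CPM (n = 3). Of the other type VI chains, Col6a5 reached 194 ± 92.6 CPM and Col6a4 only 0.396 ± 0.248 CPM. Col4a1 and Col4a2 had means of 593 ± 85.6 and 329 ± 21.3 CPM, against 7.79 to 67.0 CPM for the other 4 type IV chains. Col14a1, a FACIT of fibril surfaces, had a mean of 303 ± 91.2 CPM, and Col12a1 of 267 ± 106 CPM. Col15a1 had a mean of 158 ± 26.5 CPM and stood above Col12a1 only per kb (24.9 against 17.5 CPM per kb). At the other end, Col10a1, the collagen of hypertrophic cartilage, had 0 counts in all 22 libraries, which allows up to 0.0551 to 0.146 CPM per library at 3 counts (counting error only). Exons of Col10a1 overlap those of Nt5dc1 on the opposite strand, and use of strand in counting is not given. Its reads may therefore have been lost in counting, which that limit does not cover. Col2a1, the main cartilage collagen, had 0 to 5 counts in a group, and Col9a1 and Col9a2, which pair with it in cartilage fibrils, had 0 to 6.

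The comparison of aged with young capsule tissue asked how the capsule differs with age. No collagen passed the test. The shares of the fibrillar and basement membrane classes in all collagen counts did not overlap between the ages, while those of type VI and the FACITs did. The summed levels of the fibrillar and basement membrane classes did overlap. Fibrillar sums were 3951 to 5854 CPM in young and 3046 to 4512 CPM in aged tissue. Basement membrane sums were 1192 to 1455 CPM in young and 1372 to 2357 CPM in aged tissue. Of the 44 members, 31 passed the filter on low counts. Of these, 0 had an adjusted p under 0.05 in edgeR's quasi-likelihood test, against 0.239% of all 16350 genes tested (39 genes). At an unadjusted p under 0.05, 1 member was higher and 4 were lower (10.9% and 11.7% of all genes). DESeq2 called 0 members higher and 2 lower (Col3a1 and Col4a3, adjusted p = 0.00389 and 0.0486, against 11.5% of all genes in either direction), and limma-voom called 0 (0.153% of all genes). The median log2 fold change was 0.06 over the members tested and 0.03 over all genes.

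Fibrillar collagens took 46.3 to 51.7% of collagen counts in aged capsule tissue, below all 3 young libraries. The basement membrane class took 19.6 to 27.4% there, above all 3 young libraries, but the gap was under 1 percentage point: it took 1305 of 6858 CPM in young replicate 2 and 1372 of 6993 CPM in aged replicate 3. Type VI took group means of 16.5% in young and 17.8% in aged tissue with overlapping libraries, and FACITs took 6.02 to 8.18% and 6.81 to 8.43%. These shares are a description without a test. Col3a1 lay at 1522, 1183 and 1252 CPM in aged libraries, each below the lowest young library (1735 CPM), with a log2 fold change of -0.72 ± 0.24 (SE; edgeR adjusted p = 0.143). Groups did not overlap downward for this 1 member of 31, against 9.52% of all genes. Col1a1 lay at 778, 512 and 651 CPM, overlapping the young libraries, which on the log2 scale is a difference of -0.66 ± 0.26 (edgeR adjusted p = 0.190). Col1a2, Col5a1 and Col5a2 gave -0.41 ± 0.29, 0.00 ± 0.25 and 0.14 ± 0.22, and for Col5a1 the sign depends on the scaling.

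Among basement membrane chains, Col4a1 (chromosome 8, 11198423 to 11312826) lay at 656, 628 and 496 CPM in young and 1126, 920 and 676 CPM in aged tissue. All aged libraries were above all young ones, and the log2 fold change was 0.49 ± 0.25 (edgeR adjusted p = 0.289). Col18a1 likewise lay at 74.0 to 88.9 CPM in young and 111 to 189 CPM in aged tissue (log2 fold change 0.64 ± 0.21, edgeR adjusted p = 0.136). These 2 were the only members tested whose groups did not overlap upward, 2 of 31 against 19.1% of all genes. Col15a1 gave 0.59 ± 0.28 (edgeR adjusted p = 0.266), with 380 CPM in aged replicate 1 and 173 and 232 CPM in the other aged libraries. The 10 endothelial markers summed to 665 to 739 CPM in young and 756 to 1344 CPM in aged tissue. Aged replicate 1 was the highest library for this sum and for Col4a1, Col15a1 and Col18a1. In young replicates 1, 2 and 3 the endothelial sum was 665, 733 and 739 CPM, the reverse of the order of Col4a1. None of these 10 markers passed the test, and their part in the collagen values was not tested.

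Markers of further cell types also differed between the tissue libraries of the 2 ages. The 10 macrophage markers summed to 2159 to 4270 CPM in young and 4509 to 10682 CPM in aged tissue, without overlap, and 0 of 10 passed the test. Of 5 plasma cell markers, Jchain and Mzb1 were higher in aged tissue, with Jchain at 2.67 to 9.06 CPM in young and 286 to 691 CPM in aged libraries. The 8 brown fat markers summed to 799 to 3188 CPM in young and 272 to 413 CPM in aged tissue, and of these Fabp3 was lower. The 15 fibroblast markers overlapped, at 7321 to 12554 CPM in young and 8612 to 12891 CPM in aged tissue. The part of these cells in the collagen values was not tested.

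Of the minor type IV chains, Col4a3, Col4a4 and Col4a5 had values below 0 and Col4a6 one of 0.12 ± 0.34, and none passed the test. Col4a3 lay at 49.7, 14.8 and 39.5 CPM in young and 23.3, 13.7 and 14.6 CPM in aged tissue, which on the log2 scale is a difference of -1.13 ± 0.40 (edgeR adjusted p = 0.154). The groups overlapped through young replicate 2, and without that library the value was -1.51 with an edgeR adjusted p of 0.0370. Leaving it out also raised all genes called from 39 to 387. With any other single tissue library left out, 0 collagens were called lower. Col4a4, the head-to-head partner of Col4a3, gave -0.79 ± 0.36 (edgeR adjusted p = 0.243) and Col4a5 gave -0.73 ± 0.26 (edgeR adjusted p = 0.160). Counts of Col4a3 can include reads of the antisense gene C430014B12Rik, which overlaps its exons, since use of strand in counting is not given. The proximal tubule list summed to 6735 to 26582 CPM in young and 1342 to 6524 CPM in aged tissue. In both groups replicate 2 was the lowest for this list and for Col4a3, while replicate 3 was the highest for the list and replicate 1 for Col4a3. The loop and distal tubule list summed to 213 to 716 CPM in young and 105 to 249 CPM in aged tissue. For the 5 podocyte markers the sum went the other way, with 107 to 139 CPM in young and 144 to 236 CPM in aged tissue. The part of tubule or podocyte RNA in Col4a3 was not tested.

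Chain ratios are given as a description without a test. The ratio of Col1a1 to Col1a2 per kb was 1.14 to 1.17 in young and 0.915 to 1.06 in aged tissue. The ratio of Col4a1 to Col4a2 was 1.44 to 1.73 in young and 1.82 to 1.87 in aged tissue, and that of Col4a5 to Col4a6 was 6.61 to 8.31 against 3.43 to 4.16. Col6a1 to Col6a2 gave 2.06 to 2.10 and 1.84 to 2.24. The size of each ratio depends on the length used: with principal transcripts, Col1a1 to Col1a2 had a median of 0.552 in place of 1.16 in young tissue. No gene of the lists of chain hydroxylation, chaperones and export, propeptide processing, cross-linking, collagen receptors or basement membrane partners passed the test in tissue. The smallest p-values among them belonged to Lair1, an inhibitory collagen receptor of leukocytes (log2 fold change 1.53 ± 0.48, edgeR adjusted p = 0.124), and Tmem38b, an ion channel needed for collagen assembly (-0.73 ± 0.25, adjusted p = 0.141).

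Capsule and kidney macrophages differed in which collagens were present. Fibrillar and type VI chains were far higher in capsule macrophages, while Col14a1, Col15a1, Col18a1 and several minor chains were higher in kidney macrophages. Of the 30 members tested, 16 were higher in capsule macrophages and 9 lower, against 27.3% and 28.2% of all 15701 genes. By class, 6 of 8 fibrillar members, 5 of 5 type VI members, 2 of 5 FACITs, 2 of 3 network or anchoring members and 1 transmembrane member were higher. Lower were 3 of 8 basement membrane members, 3 FACITs, 2 fibrillar members and 1 anchoring member. The median log2 fold change was 1.96 over the members tested, 5.27 over the fibrillar class and -1.25 over the basement membrane class, against -0.03 over all genes.

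**Figure D2:**
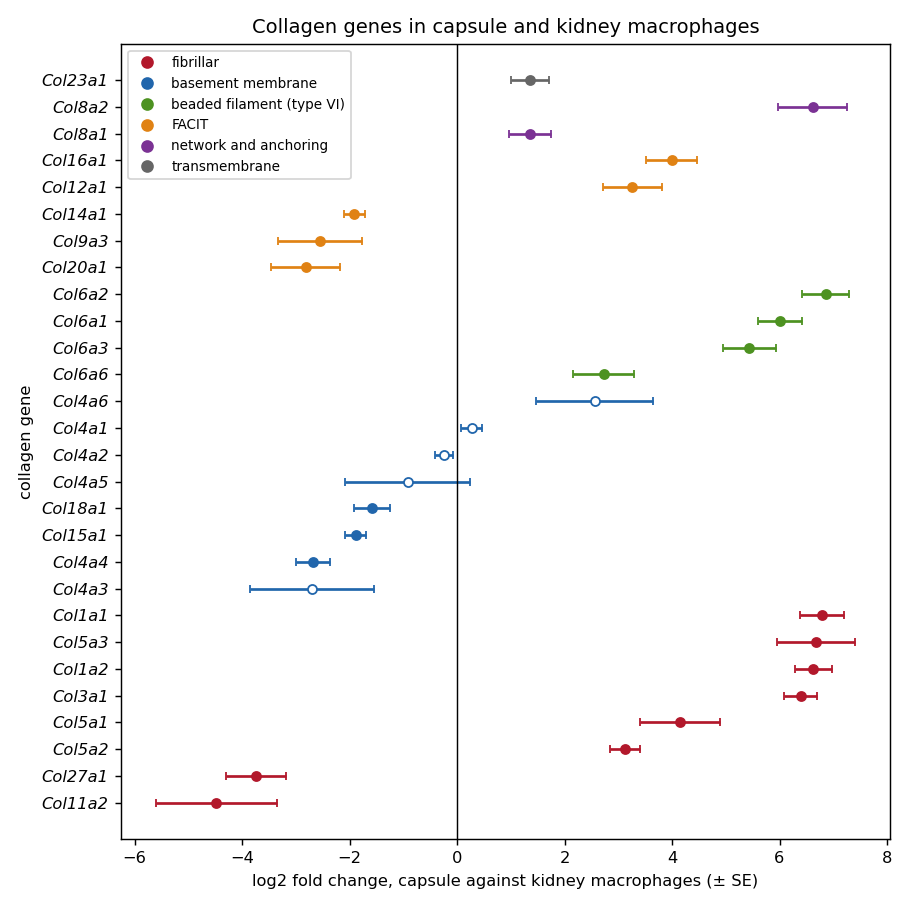
Log2 fold change of 28 collagen genes between capsule and kidney macrophages with its standard error, coloured by class; filled points have an edgeR adjusted p under 0.05 and open points do not. Col1a1, Col1a2, Col3a1 and the type VI chains lie far right, and Col14a1, Col15a1 and Col18a1 lie left of 0; Col6a5 and Col7a1 are left out because 1 group held 2 counts or fewer.

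Col3a1 lay at 120, 157, 223 and 210 CPM in capsule macrophages and 2.89, 2.83, 3.01 and 1.18 CPM in kidney macrophages. Its log2 fold change was 6.39 ± 0.31 (edgeR adjusted p = 8.53e-08). Col1a1 lay at 63.1 to 119 CPM against 0.394 to 1.88 CPM (log2 fold change 6.79 ± 0.41), and Col1a2 at 101 to 180 CPM against 0.923 to 3.05 CPM (6.63 ± 0.34). The groups did not overlap for any of these 3 genes. The type V chains, which set fibril diameter, were also higher: Col5a1 by 4.15 ± 0.75, Col5a2 by 3.12 ± 0.28 and Col5a3 by 6.68 ± 0.72 on the log2 scale. Within type VI, Col6a1 rose by 6.01 ± 0.41, Col6a2 by 6.86 ± 0.44 and Col6a3 by 5.44 ± 0.50. Col6a5 had 2185 counts in the 4 capsule libraries and 2 in the 4 kidney libraries, a ratio of CPM of 1036 (95% interval 287 to 8563, counting error only). Col8a2, a chain of the short-chain network type VIII, was higher by 6.62 ± 0.64.

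Col14a1 (chromosome 15, 55307750 to 55520803) stood out in kidney macrophages. It lay at 185, 194, 159 and 131 CPM there and at 39.3, 25.6, 41.1 and 47.4 CPM in capsule macrophages, which on the log2 scale is a difference of -1.91 ± 0.19 (edgeR adjusted p = 1.23e-05). All kidney libraries were above all capsule libraries. Col14a1 alone gave most of the FACIT sum, and FACITs took 56.9 to 60.0% of collagen counts in kidney macrophages, against 5.75 to 10.6% in capsule macrophages. Per kb it was the leading collagen of kidney macrophages at 23.9 ± 4.07 CPM (n = 4), well above Col4a2 at 4.67 ± 1.18.

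Among basement membrane members, Col15a1 (chromosome 4, 47208161 to 47313167) lay at 11.6 to 17.1 CPM in kidney and 2.64 to 4.45 CPM in capsule macrophages (log2 fold change -1.89 ± 0.20, edgeR adjusted p = 2.65e-05). Col18a1 (chromosome 10, 77052178 to 77166548) lay at 11.9 to 15.3 CPM against 1.88 to 6.88 CPM (-1.58 ± 0.34, edgeR adjusted p = 0.00244). Col4a4 was lower in capsule macrophages by -2.68 ± 0.32 on the log2 scale. Its partner Col4a3 gave a like value of -2.70 ± 1.15 that did not pass (edgeR adjusted p = 0.0689). Col4a3 lay at 4.45 to 5.21 CPM in kidney libraries and at 0.187, 2.39, 0 and 0 CPM in capsule libraries, so capsule replicate 2 set the spread. Col4a1 and Col4a2 did not pass, with 12.8 to 25.6 CPM against 17.9 to 24.9 CPM for Col4a1 (log2 fold change 0.27 ± 0.20, edgeR adjusted p = 0.280). Kidney replicate 4 had the lowest Col4a2 level of the kidney libraries (20.8 CPM, against 20.9 to 23.5 CPM in capsule macrophages). Without that library, Col4a2 was lower in capsule macrophages (-0.41, edgeR adjusted p = 0.0225), while with all libraries it did not pass.

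The other members lower in capsule macrophages were of low level. Col27a1, a fibrillar collagen of developing cartilage, lay at 10.9 to 17.3 CPM in kidney and 0.197 to 2.11 CPM in capsule macrophages (log2 fold change -3.75 ± 0.56). Col20a1, Col9a3 and Col11a2 had kidney means of 3.86 ± 0.542, 2.04 ± 0.178 and 2.23 ± 0.537 CPM (n = 4). Col7a1, the anchoring fibril collagen, had 146 counts in kidney libraries and 0 in capsule libraries, at least 51.3-fold lower at 3 counts over the group. Exons of Col9a3 overlap those of Tcfl5 on the opposite strand, and those of Col20a1 overlap a gene on the same strand, so their counts are uncertain.

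Markers of other cell types moved with these collagens. Of 15 fibroblast markers, 14 were tested and all 14 were higher in capsule macrophages. Their sum was 1531 to 2099 CPM in capsule and 24.7 to 33.6 CPM in kidney macrophages. Without Fn1, which macrophages can also express, it was 376 to 587 CPM against 13.6 to 17.9 CPM. Dcn lay at 172 to 305 CPM against 1.84 to 2.83 CPM and Pdgfra at 21.9 to 44.7 CPM against 0.482 to 2.71 CPM, while Thy1 stayed below 1 CPM in every library of both groups. The 10 proximal tubule markers summed to 1579 to 2906 CPM in kidney and 17.6 to 145 CPM in capsule macrophages, with 9 of 10 lower in capsule macrophages. Of 8 adipocyte markers tested, 7 were higher in capsule macrophages, among them Adipoq at 2.05 to 6.28 CPM against 0 in every kidney library, while Lpl, which gave most of the list's sum in both groups, was lower. The 4 erythroid markers tested were all higher, with list sums of 150 to 318 CPM against 23.2 to 35.5 CPM. The 10 endothelial markers summed to 48.4 to 65.8 CPM in kidney and at most 52.5 CPM in capsule macrophages. The part of these cells' RNA in the collagen levels was not tested.

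Genes that act on collagen chains were compared in the same way, and their counts stand against the 27.3% higher and 28.2% lower of all genes. Of 14 chain hydroxylation genes tested, 10 were higher and 1 lower in capsule macrophages. Plod1, a lysyl hydroxylase, lay at 325 to 336 CPM against 83.5 to 107 CPM (log2 fold change 2.06 ± 0.10), and its capsule level was above the 101 to 118 CPM of young capsule tissue. Crtap and P3h2 of the prolyl 3-hydroxylation machinery rose by 1.87 ± 0.11 and 2.18 ± 0.14, while P3h3 fell by 1.48 on the log2 scale. Of 12 chaperone and export genes, 7 were higher and 2 lower, with Serpinh1, the collagen chaperone HSP47, higher by 2.84 ± 0.24. All 4 called of the 5 propeptide processing genes tested were higher, among them Adamts2, the procollagen N-proteinase (6.65 ± 0.49), and Pcolce, the enhancer of C-propeptide removal (3.47 ± 0.17). Of 6 cross-linking genes, Lox and Loxl1 were higher (4.48 ± 0.35 and 4.15 ± 0.58) and Tgm2 was lower (-1.15 ± 0.26).

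Among 8 receptor and uptake genes tested, Ddr2, a receptor tyrosine kinase for fibrillar collagen, was higher in capsule macrophages by 4.93 ± 0.32, and Mrc2, an endocytic collagen receptor, by 2.71 ± 0.40. Lair1 was lower, at 86.3 to 121 CPM against 376 to 433 CPM (log2 fold change -1.72 ± 0.12), and Itgb1 was lower by -0.21 ± 0.07, a call lost without 6 of the 8 libraries left out in turn. The cross-linking list (2 of 6 higher, 1 lower) and the receptor list (2 of 8 higher, 2 lower) were near the shares over all genes. Of 14 basement membrane partners, 7 were higher. Nid2, a linker of laminin and type IV collagen, lay at 9.83 to 15.9 CPM in kidney and 99.9 to 146 CPM in capsule macrophages, and its level in the latter exceeded that of young capsule tissue (49.9 to 84.8 CPM). Nid1, its paralogue, lay at 21.9 to 32.4 CPM in capsule macrophages and at 572 to 902 CPM in young capsule tissue.

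Collagens called between aged and young RCAM libraries were all higher in aged ones: 3 basement membrane members, 3 FACITs and 1 type VI chain. The sum over all members overlapped between the ages through aged replicate 2 (652 CPM). Of the 29 members tested, 7 were higher in aged RCAM libraries and 0 lower, against 3.43% and 1.38% of all 15182 genes. These were Col4a1, Col4a2, Col18a1, Col6a1, Col14a1, Col16a1 and Col19a1. At an unadjusted p under 0.05, 19 members were higher and 0 lower, against 10.1% and 7.33% of all genes. DESeq2 called 13 higher and 0 lower (9.49% of all genes in either direction). The median log2 fold change was 1.21 over the members tested and -0.01 over all genes.

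Fibroblast markers moved in the same libraries: 12 of 15 were higher in aged RCAM libraries, with a median log2 fold change of 1.71. Their sum without Fn1 was 300 to 415 CPM in young and 989, 783, 1776 and 1530 CPM in aged RCAM libraries. Fibrillar collagens summed to 367 to 505 CPM in young and 583, 380, 1068 and 1668 CPM in aged RCAM libraries. For both lists aged replicates 3 and 4 were the highest and replicate 2 the lowest of the aged group. Endothelial markers summed to 13.8 to 22.2 CPM in young and 30.6 to 84.6 CPM in aged RCAM libraries (2 of 8 tested were higher), and mural markers to 3.85 to 5.99 CPM and 7.96 to 18.9 CPM (1 of 7 was higher). Thy1 was below 1 CPM in all RCAM libraries, and the macrophage list had 0 of 10 genes called. Of 5 plasma cell markers, Jchain (0 to 0.235 CPM in young, 33.0 to 234 CPM in aged) and Mzb1 were higher in aged RCAM libraries, as was Fabp4 of 9 adipocyte markers. The part of these other cells in the collagen values was not tested.

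Col4a1 lay at 20.4, 28.3, 12.3 and 18.4 CPM in young and 62.2, 55.5, 76.1 and 98.2 CPM in aged RCAM libraries. All aged libraries were above all young ones, and the log2 fold change was 1.85 ± 0.26 (edgeR adjusted p = 0.00382). It kept an adjusted p under 0.05 without any 1 library (0.00381 to 0.0182) and without both aged replicates 3 and 4, a setting chosen after the data were seen in which it was the only member called. Col4a2 lay at 9.71 to 18.4 CPM and 23.5 to 73.6 CPM (1.60 ± 0.34, edgeR adjusted p = 0.0270). Col18a1 lay at 0.570, 2.67, 0.508 and 0.0393 CPM in young and 8.04 to 12.3 CPM in aged RCAM libraries (3.34 ± 0.77, edgeR adjusted p = 0.0374). For Col18a1 replicates 3 and 4 were the highest of the 4 aged libraries and replicate 1 the lowest. Col15a1, its relative, did not pass, with 1.74 to 6.96 CPM in aged and 2.19 to 2.89 CPM in young libraries (0.85 ± 0.38, edgeR adjusted p = 0.287).

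These included 3 FACITs. Col19a1, a FACIT of muscle and nerve (chromosome 1, 24261890 to 24587472), lay at 0.0184 to 0.332 CPM in young RCAM libraries and 1.69, 3.57, 1.60 and 1.81 CPM in aged ones. Its log2 fold change was 3.77 ± 0.65 (edgeR adjusted p = 0.0110), from 32 counts in young and 419 in aged libraries. Aged replicate 2, the lowest aged library for the fibroblast and fibrillar sums, was the highest for Col19a1. It was also the highest aged library for the plasma cell sum (608 CPM, against 389 to 478 CPM in the others) and for the macrophage and adipocyte sums. The part of any of these cells in the Col19a1 values was not tested. The level of Col19a1 in capsule tissue was at most 0.111 CPM, so it was also higher in aged RCAM than in aged tissue (log2 fold change 4.68 ± 0.54, edgeR adjusted p = 9.26e-05). Col16a1 lay at 1.83 to 4.24 CPM in young and 6.49 to 16.8 CPM in aged RCAM libraries (1.81 ± 0.33, edgeR adjusted p = 0.0149). Col14a1 lay at 44.8, 36.8, 49.0 and 39.6 CPM and at 57.3, 69.4, 105 and 86.4 CPM (0.88 ± 0.18, edgeR adjusted p = 0.0203).

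**Figure D3:**
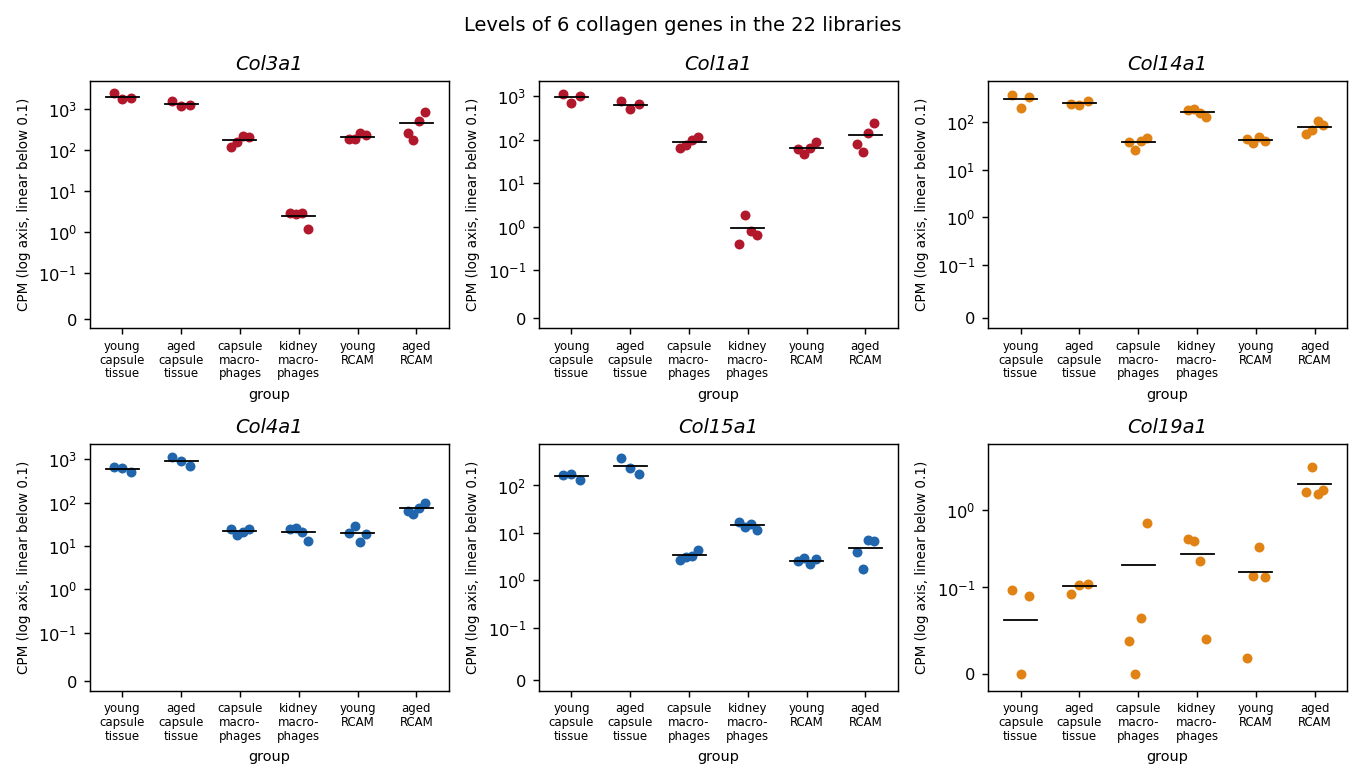
Levels of 6 collagen genes in CPM (log axis, linear below 0.1) in the 22 libraries by group; points are libraries and black lines are group means. In kidney macrophages Col3a1 and Col1a1 lie at 3.01 CPM or less and Col14a1 at 131 to 194 CPM, and Col19a1 reaches 1.60 CPM or more in the 4 aged RCAM libraries and in no other.

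The fibrillar class had 0 of 8 members called in RCAM libraries by edgeR, with 7 of 8 at an unadjusted p under 0.05. Col3a1 lay at 188, 184, 253 and 228 CPM in young and 263, 173, 513 and 855 CPM in aged libraries, so aged replicate 2 fell within the young range (log2 fold change 1.06 ± 0.40, edgeR adjusted p = 0.196). Col1a1 gave 0.93 ± 0.40 and Col1a2 1.06 ± 0.33 (edgeR adjusted p = 0.265 and 0.114), with the same order of aged libraries. Without aged replicates 3 and 4 the value for Col1a1 was -0.04. Of type VI, Col6a1 passed narrowly with overlapping groups, at 31.8 to 45.4 CPM and 42.0 to 145 CPM (1.25 ± 0.31, edgeR adjusted p = 0.0499). Col6a2 and Col6a3 gave 1.26 ± 0.46 and 1.17 ± 0.40 and did not pass, and Col6a5 gave -0.15 ± 0.53.

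The count of called members moved with single libraries. It was 3 without aged replicate 4, 4 without young replicate 2, 3 or 4, and 11 without aged replicate 2. All genes called moved as well, from 729 with every library to 454 without aged replicate 4 and 629 without aged replicate 2. They numbered 495, 541 and 451 without young replicate 2, 3 or 4. Col4a1, Col16a1 and Col19a1 passed whichever library was left out, while Col14a1, Col4a2, Col18a1 and Col6a1 each missed the threshold without at least 1 of them.

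**Figure D4:**
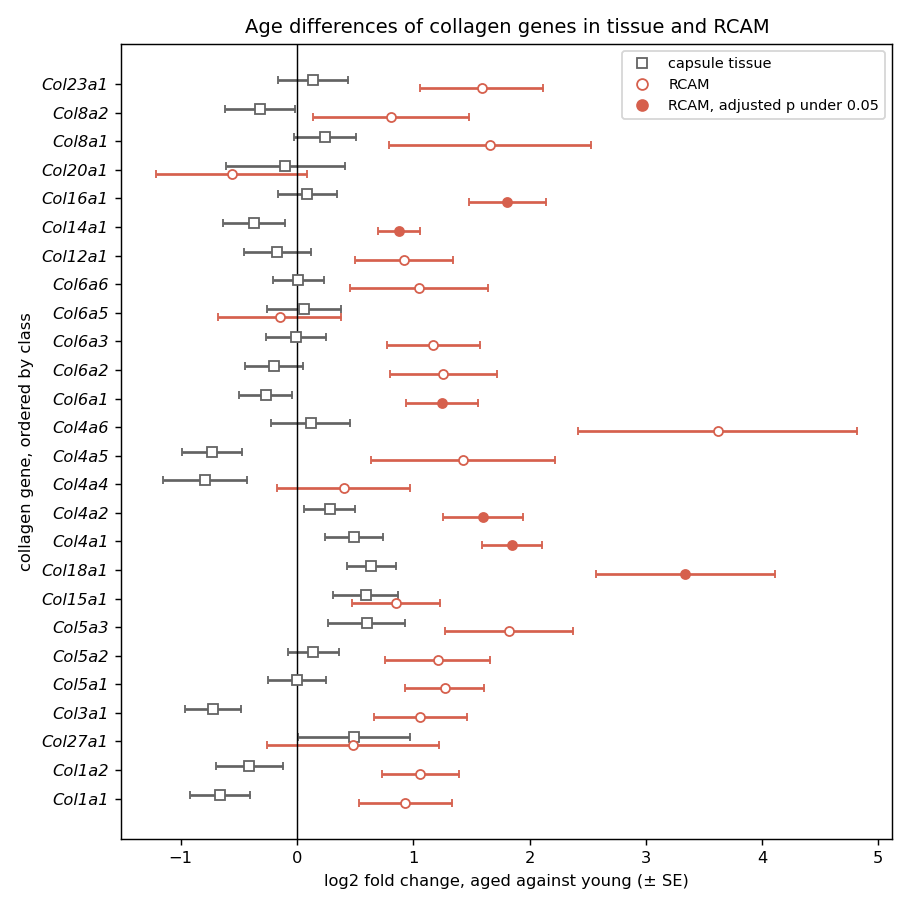
Log2 fold change with age and its standard error for the 26 collagen genes tested in both capsule tissue (squares) and RCAM libraries (circles); filled symbols have an edgeR adjusted p under 0.05. No square is filled, and the filled circles are Col4a1, Col4a2, Col18a1, Col6a1, Col14a1 and Col16a1; Col19a1 was not tested in tissue.

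Genes that handle collagen also differed with age in RCAM libraries, where 3.43% of all genes were higher and 1.38% lower. Of 7 cross-linking genes, 4 were higher: Loxl1 (2.46 to 3.34 CPM in young, 8.87 to 21.6 CPM in aged, log2 fold change 2.30 ± 0.29), Pxdn, which makes the sulfilimine bond of type IV collagen (1.84 ± 0.39), Loxl3 (0.91 ± 0.19) and Tgm2 (1.61 ± 0.35). Of 7 propeptide processing genes, Pcolce2 and Adamts2 were higher (2.40 ± 0.37 and 1.57 ± 0.32). P3h3 and Crtap were higher among 14 chain hydroxylation genes, and Fkbp10 and Tmem38b among 12 chaperone and export genes. Of 8 receptor genes, 4 were higher and 1 lower. Itga11, an integrin chain of fibroblasts that binds fibrillar collagen, lay at 0.0983 to 0.602 CPM in young and 2.14 to 8.81 CPM in aged libraries (4.38 ± 0.65, edgeR adjusted p = 0.00559). Itga2, a collagen-binding integrin chain, fell from 2.31 to 4.37 CPM to 0.222 to 1.09 CPM (-2.35 ± 0.46, edgeR adjusted p = 0.0183). Among basement membrane partners, Lama4, a laminin chain, and Nid1 were higher (2.34 ± 0.35 and 1.63 ± 0.27) and Nid2 was lower (-0.50 ± 0.11, edgeR adjusted p = 0.0313).

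RCAM libraries held far less collagen than capsule tissue at either age. Of 32 members tested in young mice, 30 were lower and 0 higher in RCAM libraries than in capsule tissue, against 40.6% and 35.2% of all genes. At an unadjusted p under 0.05, 31 were lower (41.4% of all genes) and 0 higher (36.2%), and DESeq2 called 31 lower and 0 higher (76.3% of all genes in either direction). Of 35 tested in aged mice, 30 were lower and Col19a1 was higher, against 38.5% and 32.2% of all genes. The labels name a regular-input and a low-input library kit without saying which sample had which, so a kit difference cannot be told apart from these differences. Col20a1 and Col11a2 did not pass in young mice. In aged mice Col11a2, Col17a1, Col25a1 and Col26a1 did not pass. Col3a1 passed in aged mice (-1.23 ± 0.47, edgeR adjusted p = 0.0414) but missed the threshold without any 1 of the 3 aged tissue libraries or of the aged RCAM replicates 1, 2 and 3.

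Members differed in how much of the tissue level RCAM libraries held. For the 26 members at 5 CPM or more in tissue, the RCAM mean had a median of 5.33% of the tissue mean in young mice. The 14 fibroblast markers other than Fn1 had a median of 3.73%, and Fn1 itself stood at 416%. Fibrillar members had a median of 5.83% and type VI members of 6.40%. Basement membrane members had a median of 1.53%. The 9 endothelial markers had a median of 1.52% with a range of 0.243 to 27.0%, and the 7 mural markers one of 0.319%. Col14a1 (42.5 of 303 CPM), Col23a1 (13.6%) and Col3a1 (10.7%) held the largest shares of these 26, and Col4a3 (0.943%), Col18a1 (1.15%), Col4a6 (1.33%) and Col12a1 (1.37%) the smallest.

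In aged mice the median share was 10.8% over the 26 members, 12.9% over fibrillar members and 7.52% over basement membrane members. It was 13.9% over fibroblast markers without Fn1, 5.22% over endothelial markers and 2.17% over mural markers. Col23a1, Col3a1 and Col14a1 reached 34.7%, 34.2% and 31.5%, and Col18a1 6.98%. Col15a1 stayed at 1.84%, near its 1.65% in young mice, and Col12a1 at 2.77%. These shares compare groups of libraries and carry no test.

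**Figure D5:**
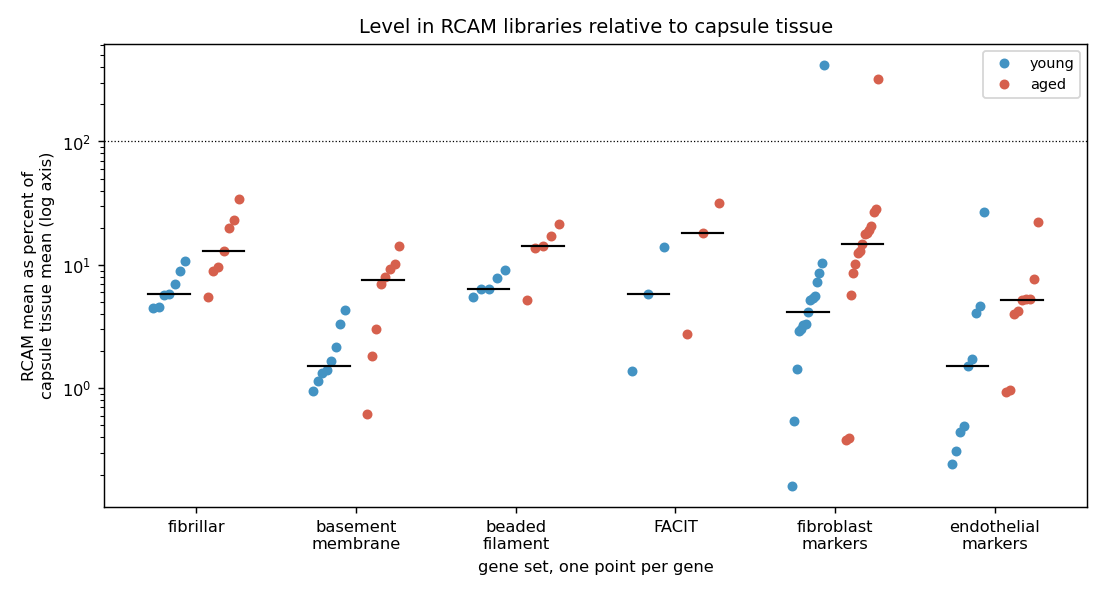
Mean level in RCAM libraries as a percent of the mean in capsule tissue of the same age (log axis), one point per gene and a black line for the median; the dotted line marks 100%. Fibrillar collagens (medians 5.83 and 12.9%) and fibroblast markers (4.15 and 14.9% with Fn1) sit at similar heights, and basement membrane collagens (1.53 and 7.52%) sit lower.

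The age effects of the 2 kinds of library were set against each other by an interaction term over the 4 young and aged groups. Of 37 members tested, 4 had a larger age effect in RCAM libraries and 0 a smaller one, against 3.12% and 1.93% of all 18856 genes. Col4a1 gave a log2 difference of 1.40 ± 0.37, Col14a1 of 1.29 ± 0.31, Col16a1 of 1.76 ± 0.46 and Col28a1 of 4.11 ± 1.07 (edgeR adjusted p = 0.0438, 0.0355, 0.0444 and 0.0428). Col28a1 rests on 4 counts in young and 92 in aged RCAM libraries, and was too low to be tested among the RCAM libraries alone. At an unadjusted p under 0.05, 18 members had a larger and 1 a smaller age effect in RCAM libraries (13.2% and 9.20% of all genes). Col3a1 gave 1.81 ± 0.54 and Col1a1 1.63 ± 0.55, and neither passed (edgeR adjusted p = 0.0661 and 0.0992). Of 15 fibroblast markers, 10 passed in the same direction. The count of members fell to 0 without young tissue replicate 1, aged tissue replicate 1 or 2, young RCAM replicate 1, 3 or 4, or aged RCAM replicate 4. It was 1 or 2 without young tissue replicate 2 or 3, aged tissue replicate 3, young RCAM replicate 2 or aged RCAM replicate 1 or 3, and 8 without aged RCAM replicate 2. No count over all genes is given beside these counts.

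Low members completed the set. Col6a4 had 25 and 68 counts in young and aged tissue and 0 to 11 in the other groups. Col13a1, a transmembrane collagen, had means of 1.22 ± 0.509 and 1.42 ± 1.05 CPM in young and aged tissue (n = 3) and at most 0.342 CPM in any other library. Col25a1, a transmembrane collagen of neurons, stood at 2.38 CPM in aged tissue replicate 2 and at most 0.231 CPM in the other tissue libraries. Aged tissue replicate 2 had the highest adrenal cortex sum, and young tissue replicate 2, the next highest (197 CPM), had 0 counts of Col25a1. Outside tissue, Col25a1 reached 50 counts in young RCAM replicate 4 and 42 in aged RCAM replicate 1. Col28a1 had means of 3.32 ± 0.886 and 4.65 ± 0.830 CPM in young and aged tissue and at most 1.13 CPM elsewhere. Col11a1, Col22a1 and Col24a1 were under 1 CPM in all 22 libraries.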

How the data were processed

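Bulk RNA was sequenced in 22 libraries of 6 groups, named by the sample titles, with single-end reads of 50 bases per the labels' protocols. The authors deposited raw read counts per Ensembl gene and RPKM values for each library, per the file headers; the deposited RPKM values were not used in any result. The genome build was GRCm38 per the submitters' processing notes; aligner, counter and strand setting: not given in the sources used here. The labels' protocols name a regular-input kit (100 ng) and a low-input kit (2 ng) without tying either to a sample. Of 52636 gene IDs, 52489 matched GENCODE M21.

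The main test was edgeR 4.0.16 (R 4.3.3) with filterByExpr, TMM scaling, glmQLFit and glmQLFTest on the counts of the groups compared, with p-values adjusted by Benjamini-Hochberg across every gene fitted and called under 0.05. Printed fold changes are log2 values with their standard errors. DESeq2 1.42.0, limma-voom (limma 3.58.1), other scalings, no filter, each library left out, and the replicate number as a block were alternatives. Scripts were tested on simulated data. Levels are CPM of the unscaled library total, and levels per kb use merged exon length. Totals of 20586795 to 54421764 counts put the floor of 3 counts at 0.0551 to 0.146 CPM; intervals and floors cover counting error only.

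The collagens named are those past the threshold, up to 12 of smallest p in a comparison, the 3 of smallest p of the fibrillar, basement membrane and other classes, and 13 chains followed in all comparisons; of each partner list, up to 4 past the threshold or else the 2 of smallest p. Further members were named after their values were seen. One gene of the basement membrane partner list is not reported here. The members, the lists and the tests were chosen with earlier results of these data known.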

Additional observations from a re-analysis of the deposited data

Results flagged for a closer look

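In groups of 4 libraries, 1 library stood apart from the other 3 in 5 of 72 sets of member and group by a gap that took most of the whole range (Dixon's rule); chance flags about 1 in 20 such groups. Col6a1 in capsule macrophages replicate 4 lay at 65.0 CPM, with the others at 34.4 to 36.2 CPM. Col3a1 in kidney macrophages replicate 4 lay at 1.18 CPM, with the others at 2.83 to 3.01 CPM. Col6a3 in kidney macrophages replicate 1 lay at 0.657 CPM, with the others at 0.140 to 0.188 CPM. Col19a1 in aged RCAM replicate 2 lay at 3.57 CPM, with the others at 1.60 to 1.81 CPM. Col4a3 in aged RCAM replicate 1 lay at 0.299 CPM, with the others at 0.0222 to 0.0579 CPM.

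By the interaction term, age effects in RCAM libraries were not those of capsule tissue for Col4a1 (log2 difference 1.40), Col14a1 (1.29), Col16a1 (1.76) and Col28a1 (4.11), each larger in RCAM libraries. The value for Col28a1 rests on 4 counts in young RCAM libraries, and it was too low to be tested between the RCAM groups alone. Leaving out any 1 of 7 single libraries, named beside the result, took the count of these members to 0.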

How the results depend on the processing

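In aged against young capsule tissue, collagens called lower numbered 0 in edgeR, 2 with DESeq2, 2 with the replicate block (Col4a3 and Col4a4), 0 to 1 with 1 library left out and 1 without both libraries numbered 2. All genes called numbered 39, against 1876 with DESeq2, 25 with limma-voom, 1095 with no filter, 2196 with the replicate block, 0 to 387 with 1 library left out and 487 without both libraries numbered 2. Col5a1 (0.00) changed sign with DESeq2 (-0.01), limma-voom (-0.04), RLE scaling (-0.01), no filter (-0.02), scaling without immunoglobulin, mitochondrial and haemoglobin genes (-0.03), the replicate block (-0.02) and with young replicate 2 or 3 or aged replicate 1 left out (-0.06, -0.07 and -0.25; range over all 6 -0.25 to 0.15). Col5a2 did so without aged replicate 1 (range over all 6 -0.06 to 0.25). Col6a3 (-0.01) did so with library totals (0.12), without both libraries numbered 2 (0.11) and with 1 of 3 libraries left out (0.03, 0.10 and 0.17; range over all 6 -0.26 to 0.17). In aged against young RCAM libraries, collagens called higher numbered 7, against 13 with DESeq2, 3 with the replicate block (Col4a1, Col14a1 and Col19a1), 3 to 11 with 1 library left out and 1 without both aged replicates 3 and 4, a setting added after the data were seen. All genes called numbered 729, against 1441, 336, 451 to 629 and 223 in the same order. Col1a1 turned to -0.04 without both aged replicates. Collagens higher in aged RCAM than in aged tissue numbered 1 to 2 with 1 library left out, 2 without aged RCAM replicate 1. Collagens with a larger age effect in RCAM libraries numbered 4, against 9 with DESeq2, 2 with RLE scaling, 2 with library totals, 5 with the replicate block, 0 to 8 with 1 library left out, 1 without both tissue libraries numbered 2 and 1 without both aged RCAM replicates 3 and 4; in the last setting Col15a1 turned from 0.30 to -0.47. The cause was not tested. The replicate numbers were not taken as pairs: deviations of same-numbered tissue libraries correlated at 0.099, 0.353 and 0.31 (at most 0.038 for unequal numbers, a hint from the data and not from the design), and those of RCAM libraries at -0.108 to -0.026. In capsule against kidney macrophages and in young RCAM against young tissue, every count of collagens called stayed within 1.5 times its main value under the alternatives run. Depth limits the members under the floor of 3 counts.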
